A study of Mus musculus with 7 samples.

Results

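A set of 9 erythroid genes was followed in LSK cells of mouse bone marrow. These Lin-Sca1+Kit+ cells include the stem cells of blood and their multipotent offspring. The 9 genes were chosen by name among the 24421 gene symbols counted. They comprised the transcription regulators Gata1, Klf1, Zfpm1 and Gfi1b, the surface receptors Epor and Tfrc, the heme enzyme Alas2, and the carbonic anhydrases Car1 and Car2. RNA-seq had been performed on 4 Ddx41+/+ and 3 Ddx41+/- LSK samples to ask what the loss of a single Ddx41 allele does to the transcriptome after transplantation. The Ddx41 product is an RNA helicase of the DEAD-box family.

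Donor marrow came from Rosa-CreERT2 mice, in which a tamoxifen-activated recombinase is made from the Rosa26 locus in most cell types. The donors carried either a floxed Ddx41 allele beside a wild-type allele (Ddx41+/- after excision) or wild-type Ddx41 (Ddx41+/+). Recipients were BoyJ mice, which each received 1000000 marrow mononuclear cells. Both groups were given tamoxifen at 1 mg per injection, in 2 rounds of 5 days, so the agent and the recombinase were shared by the controls. Marrow was harvested 8 weeks after the transplant. Ages were not given, and the sort was described by LSK markers alone, so recipient LSK cells that outlived conditioning may be among those profiled. The deposited samples were numbered 1 to 4 (Ddx41+/+) and 6 to 8 (Ddx41+/-). The labels do not state that each came from its own mouse, so p-values measure the spread between these samples.

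Erythroid cells arise from multipotent progenitors through a hand-over between transcription factors. GATA2, active in stem cells, gives way to GATA1, which acts with its cofactor FOG1 (encoded by Zfpm1) and turns on the CACCC-box factor KLF1 and the repressor GFI1B. These factors then activate the erythropoietin receptor, the erythroid heme enzyme ALAS2, the globins and the carbonic anhydrases. The transferrin receptor brings in the iron that heme needs, but dividing cells of any kind use it too. LSK cells stand before this commitment, and their erythroid transcripts are usually read as priming at a low level.

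The letters GATAA, a core bound by GATA factors, and CACCC, the core of the box bound by KLF1 and its relatives, were searched on both strands of the 250 bases before each RefSeq start site (GRCm38.p6). Windows were found for 7 of the 9 genes, 8 windows in all because Tfrc had a pair of start sites. GATAA or its complement TTATC was in 4 of the 8, those of Klf1, Gfi1b, Epor and Alas2, and in 22.6% of all 32851 windows. CACCC or its complement GGGTG was in 8 of 8 windows and in 52.0% of all windows, so it is a common sequence. A match is a description of letters and not a bound site.

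Shown here are the 4 windows that held GATAA, whose genes are textbook targets of GATA1, together with that of Gata1 itself, which did not hold it. Capitals mark matches to GATAA and to the CACCC core on either strand, and each sequence runs 5′ to 3′ on the gene's strand. The Gata1 window was chrX:7967911-7968160 on the minus strand, inside the longer GENCODE gene and outside its exons. Those of Gfi1b and Epor were chr2:28621983-28622232 and chr9:21963577-21963826, both on the minus strand. Klf1 and Alas2 are printed up to the base before the first GENCODE exon, as chr8:84901732-84901927 and chrX:150547167-150547374 on the plus strand. That leaves out 42 bases for Alas2, which held all 3 of its GGGTG matches, and 54 bases for Klf1.
Gata1: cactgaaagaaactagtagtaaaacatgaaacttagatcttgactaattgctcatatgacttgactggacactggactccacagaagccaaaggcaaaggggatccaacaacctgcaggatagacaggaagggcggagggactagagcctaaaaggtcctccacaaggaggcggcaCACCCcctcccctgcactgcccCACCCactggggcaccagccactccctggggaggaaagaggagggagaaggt
Klf1: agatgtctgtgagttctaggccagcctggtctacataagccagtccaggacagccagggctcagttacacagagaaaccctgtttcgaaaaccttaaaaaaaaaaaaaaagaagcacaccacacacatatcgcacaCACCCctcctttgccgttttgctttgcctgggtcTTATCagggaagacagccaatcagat
Gfi1b: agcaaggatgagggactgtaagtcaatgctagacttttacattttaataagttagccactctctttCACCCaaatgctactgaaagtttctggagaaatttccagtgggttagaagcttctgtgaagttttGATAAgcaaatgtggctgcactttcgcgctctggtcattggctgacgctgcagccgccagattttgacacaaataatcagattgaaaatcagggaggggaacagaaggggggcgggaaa
Epor: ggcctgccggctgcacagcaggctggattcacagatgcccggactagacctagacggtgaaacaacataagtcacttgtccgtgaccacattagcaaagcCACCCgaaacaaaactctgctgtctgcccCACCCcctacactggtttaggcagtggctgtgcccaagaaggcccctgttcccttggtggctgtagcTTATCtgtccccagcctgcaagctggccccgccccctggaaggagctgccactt
Alas2: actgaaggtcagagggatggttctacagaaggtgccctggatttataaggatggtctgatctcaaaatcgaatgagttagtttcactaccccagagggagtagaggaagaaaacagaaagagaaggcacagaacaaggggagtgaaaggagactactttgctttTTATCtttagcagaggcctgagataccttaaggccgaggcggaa

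All 9 genes were detected in every sample. Raw counts were lowest for Alas2 (142 to 266) and Epor (382 to 682) and highest for Car2 (7405 to 10233), in libraries of 32234499 to 43751290 counts. Compared per length, as library-scaled counts (CPM) per kilobase of GENCODE exon averaged over 7 samples, the carbonic anhydrases stood first. Car1, a cytosolic enzyme abundant in red cells, was at 94.6 ± 25.7 CPM per kilobase (SD, n = 7). Car2, its faster relative that other blood cells use too, was at 94.2 ± 11.3 (SD, n = 7), and these neighbours did not differ beyond their spread. Zfpm1 at 29.7 ± 4.63 and Tfrc at 27.0 ± 3.58 CPM per kilobase (SD, n = 7) came next. Zfpm1 was above Tfrc in the 4 Ddx41+/+ samples (means 32.1 and 24.7 CPM per kilobase) and under it in the 3 Ddx41+/- samples (26.5 and 30.1).

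The DNA-binding factors were lower. Gfi1b was at 19.0 ± 2.78 CPM per kilobase and above Gata1 in 7 of 7 samples. Gata1 at 12.6 ± 1.72 and Klf1 at 12.4 ± 3.02 CPM per kilobase (SD, n = 7) did not differ beyond their spread, with Gata1 ahead in 4 of 7 samples. The erythropoietin receptor and the erythroid heme enzyme closed the order. Epor was at 6.40 ± 1.49 and Alas2 at 2.24 ± 0.701 CPM per kilobase, the latter 42.2-fold under Car1. Among neighbours in this order, the sample ranges were separate only between Car2 and Zfpm1 and between Epor and Alas2. Alas2 carries a further uncertainty, because its exons overlap those of Apex2 and Mir3620 on the opposite strand and the strand setting of the counting is not given in the sources used here.

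**Figure D1:**
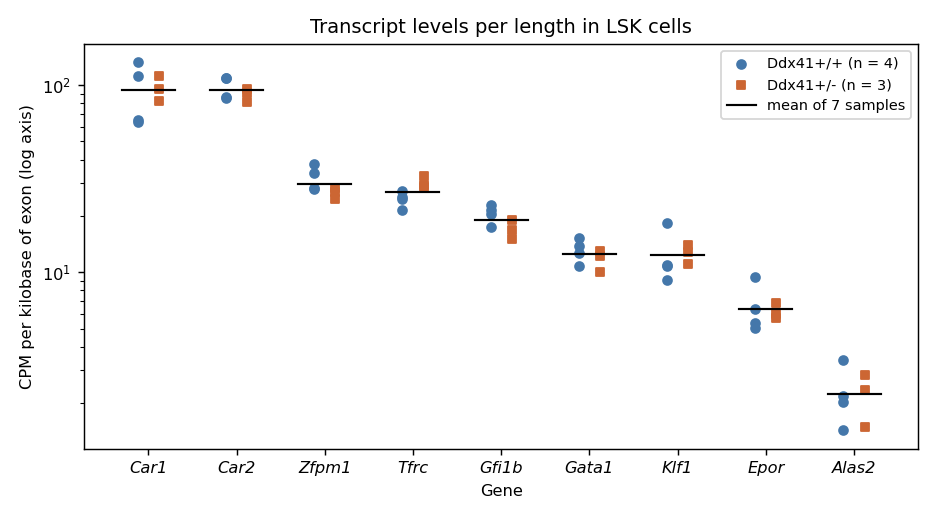
Transcript level per length of the 9 erythroid genes in LSK cells, in CPM per kilobase of exon on a log axis. Circles are the 4 Ddx41+/+ samples, squares the 3 Ddx41+/- samples and lines the mean of all 7. Car1 and Car2 stand near 94 CPM per kilobase and Alas2 lies lowest at 2.24.

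Before the members, the labels were checked on the targeted gene. The mean of Ddx41 was 97.9 ± 6.43 CPM (SD, n = 4) in controls and 67.3 ± 2.62 CPM in Ddx41+/- samples (SD, n = 3), 68.8% of the control level and without overlap (log2 fold change -0.54, edgeR adjusted p = 0.0052). Of the LSK markers, Kit was at 466 ± 32.2 CPM in Ddx41+/+ and 468 ± 19.4 CPM in Ddx41+/- samples. Ly6a, which encodes Sca-1, ranged from 17.7 to 23.6 and from 13.3 to 30.5 CPM. Both belong to a list of 14 LSK gate genes, of which 2 were fitted higher and 12 lower in Ddx41+/-. At an unadjusted edgeR p under 0.05, 7 of the 14 were lower and 0 higher, beside 4.93% and 5.7% of all genes. Across all 13340 genes tested, edgeR's quasi-likelihood test with Benjamini-Hochberg adjustment called 29 genes at 0.05 (0.217%), with 16 higher (0.12%) and 13 lower (0.0975%) in Ddx41+/-.

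None of the 9 erythroid genes passed that test. Their adjusted p-values lay between 0.176 and 0.985, and DESeq2 called 1 of them, Tfrc. Without adjustment, 3 of 9 had an edgeR p under 0.05, with Tfrc higher and Zfpm1 and Gfi1b lower in Ddx41+/-, where 10.6% of all genes had such a p (5.7% higher and 4.93% lower). The CPM of the genotypes did not overlap for 1 member, Tfrc, against 10.1% of all genes. Fitted changes were positive for 3 members and negative for 6, with a median of -0.08 against -0.0048 over all genes on the log2 scale. In bulk samples such as these, fewer cells that make a transcript and less of it per cell cannot be told apart.

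**Figure D2:**
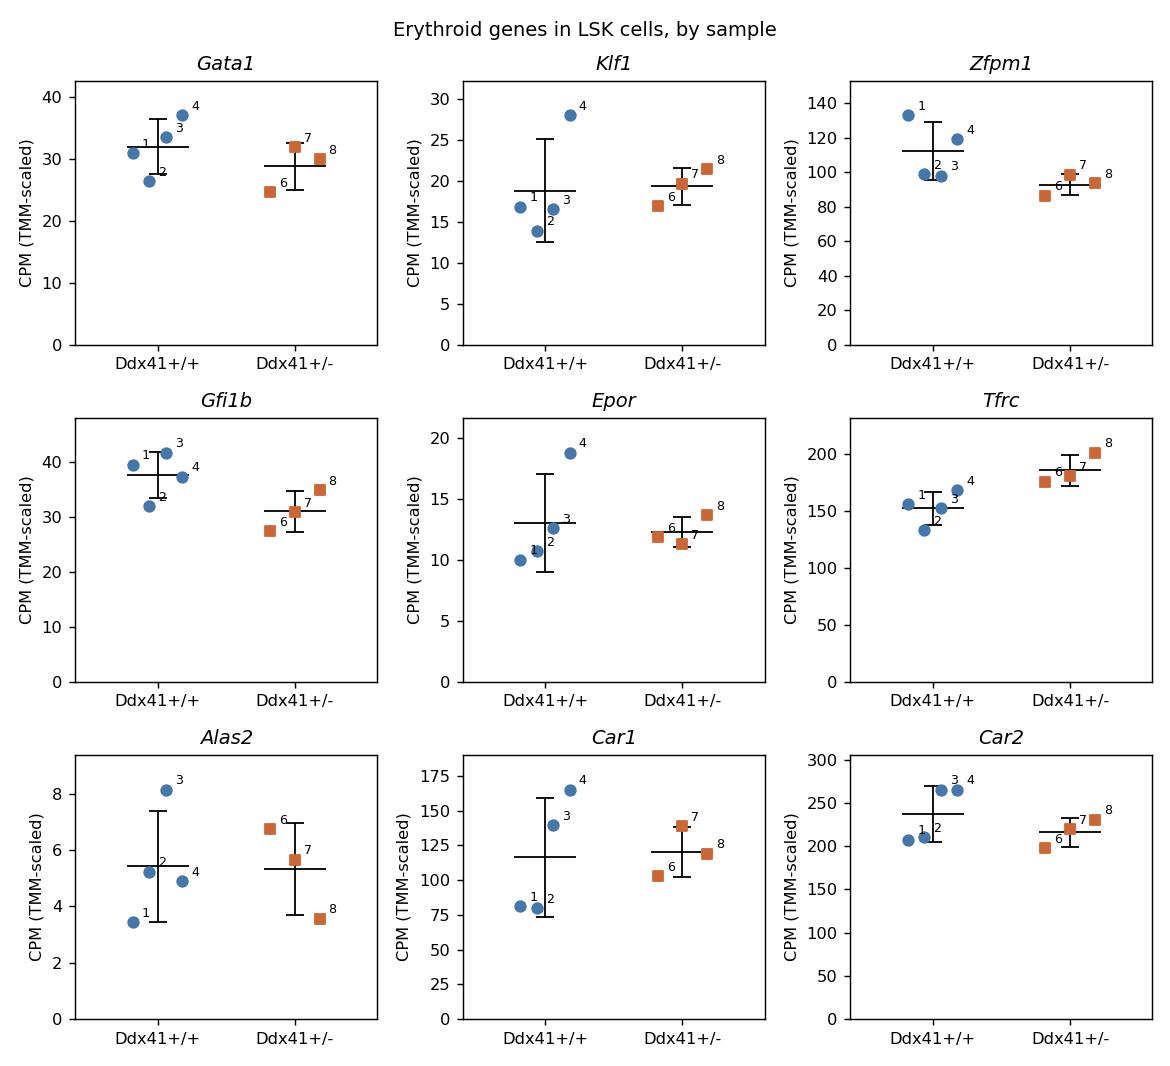
CPM (scaled by the trimmed mean of M values, linear axes from 0) of the 9 erythroid genes in each sample, with numbers naming the replicate. Bars give the mean and SD of 4 Ddx41+/+ and 3 Ddx41+/- samples. The genotypes are apart for Tfrc, with 133 to 169 CPM in Ddx41+/+ and 176 to 202 CPM in Ddx41+/- samples, and share part of their range for the other 8 genes.

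Gata1 (chrX:7959260-7978071, minus strand, GRCm38) encodes the zinc finger factor that drives erythroid and megakaryocytic fate. In Ddx41+/+ samples 1 to 4 it was at 31.0, 26.4, 33.5 and 37.0 CPM, and in Ddx41+/- samples 6 to 8 at 24.6, 31.9 and 29.9 CPM. The groups overlapped, with the highest value in Ddx41+/+ 4 and the lowest in Ddx41+/- 6. The means were 32.0 ± 4.47 CPM (SD, n = 4) and 28.8 ± 3.76 CPM (SD, n = 3), a log2 fold change of -0.15 ± 0.12 (SE) with a 95% interval of -0.40 to 0.10 (edgeR adjusted p = 0.700). All Ddx41+/+ and Ddx41+/- samples expressed Xist and had 0 CPM of the Y-linked Ddx3y, so sex did not differ between groups for the X-linked Gata1 and Alas2.

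Klf1 (chr8:84901928-84905291, plus strand) encodes the erythroid Krüppel-like factor that activates adult beta-globin and many other red cell genes. It was measured at 16.8, 13.9, 16.5 and 28.0 CPM in Ddx41+/+ samples and at 16.9, 19.7 and 21.4 CPM in Ddx41+/- samples. Ddx41+/+ 4 alone stood above the rest, and every Ddx41+/- value lay inside the control range. The log2 fold change was 0.04 ± 0.21 (SE), with a 95% interval of -0.42 to 0.50 (edgeR adjusted p = 0.967). Without Ddx41+/+ 4 it was 0.30, and without Ddx41+/+ 2 it was -0.08, so single samples set its sign.

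Zfpm1 (chr8:122282141-122337251, plus strand) encodes FOG1, the partner through which GATA1 activates and represses many of its targets. Its level was 133.0, 99.0, 98.1 and 119 CPM in Ddx41+/+ samples and 86.4, 98.5 and 93.7 CPM in Ddx41+/- samples. Ddx41+/- 7 overlapped only with Ddx41+/+ 3, and the other 2 Ddx41+/- values lay under all controls. The Ddx41+/- mean was 82.7% of the control mean (92.8 ± 6.11, SD, n = 3, against 112 ± 16.9 CPM, SD, n = 4). The log2 fold change was -0.28 ± 0.10 (SE), with a 95% interval of -0.49 to -0.06, and did not pass (edgeR adjusted p = 0.336).

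Gfi1b (chr2:28609450-28621982, minus strand) encodes a repressor needed by erythroid and megakaryocytic cells. The 4 Ddx41+/+ samples had 39.5, 31.9, 41.7 and 37.3 CPM and the 3 Ddx41+/- samples 27.4, 30.9 and 34.8 CPM. The other 2 Ddx41+/- values were under all controls, while Ddx41+/- 8 was above Ddx41+/+ 2. The difference was close to that of Zfpm1 in size, at 82.5% of the control mean and a log2 fold change of -0.28 ± 0.11 (SE, 95% interval -0.50 to -0.05, edgeR adjusted p = 0.366). It kept its sign in all 14 alternatives, between -0.37 and -0.20.

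Epor (chr9:21958897-21963506, minus strand) encodes the erythropoietin receptor, which sustains erythroid progenitors through JAK2 and STAT5. Values were 10.0, 10.7, 12.6 and 18.8 CPM in Ddx41+/+ samples and 11.9, 11.3 and 13.7 CPM in Ddx41+/- samples. As with Klf1, Ddx41+/+ 4 was above the others, which lay between 10.0 and 13.7 CPM. The log2 fold change was -0.08 ± 0.19 (SE), with a 95% interval of -0.49 to 0.33 (edgeR adjusted p = 0.917), and it was 0.15 without Ddx41+/+ 4.

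Tfrc (chr16:32608920-32632794, plus strand) encodes transferrin receptor 1 (CD71), the main entry of iron into erythroid and dividing cells. It was at 156, 133, 152 and 169 CPM in Ddx41+/+ and at 176, 181 and 202 CPM in Ddx41+/- samples. All 3 Ddx41+/- values were above all 4 controls. The control mean was 153 ± 14.6 CPM (SD, n = 4) and the Ddx41+/- mean 186 ± 13.6 CPM (SD, n = 3), a 1.22-fold difference. The log2 fold change was 0.29 ± 0.08 (SE), with a 95% interval of 0.12 to 0.45, and it did not pass in edgeR (unadjusted p = 0.0019, adjusted p = 0.176). DESeq2, which called 1.28% of the genes it adjusted, gave an adjusted p of 0.0492. Leaving out 1 sample at a time gave log2 fold changes of 0.23 to 0.34 and edgeR adjusted p-values of 0.148 to 0.491.

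Alas2 (chrX:150547375-150570638, plus strand) encodes the erythroid form of the enzyme that starts heme synthesis. It was the least abundant member, with 3.43, 5.23, 8.15 and 4.89 CPM in Ddx41+/+ and 6.75, 5.67 and 3.56 CPM in Ddx41+/- samples. The highest and the lowest value were both in Ddx41+/+ samples, so the groups overlapped entirely. The log2 fold change was -0.02 ± 0.28 (SE), with a 95% interval of -0.62 to 0.57 (edgeR adjusted p = 0.985). Differences up to the ends of this interval are not excluded here.

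Car1 (chr3:14766216-14808368, minus strand) and Car2 (chr3:14886273-14900770, plus strand) are neighbours in the genome. Car1 was at 81.4, 79.6, 140 and 165 CPM in Ddx41+/+ and 103, 139 and 119 CPM in Ddx41+/- samples. The controls fell into a low pair and a high pair, and all Ddx41+/- values lay between them. The log2 fold change of Car1 was 0.05 ± 0.32 (SE), the widest error of the 9, with a 95% interval of -0.76 to 0.86 (edgeR adjusted p = 0.977). Car2 had the same low and high control pairs, at 207, 210 and 265, 266 CPM, and 198, 220 and 231 CPM in Ddx41+/- samples. Its log2 fold change was -0.13 ± 0.09 (SE), with a 95% interval of -0.34 to 0.07 (edgeR adjusted p = 0.660).

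**Figure D3:**
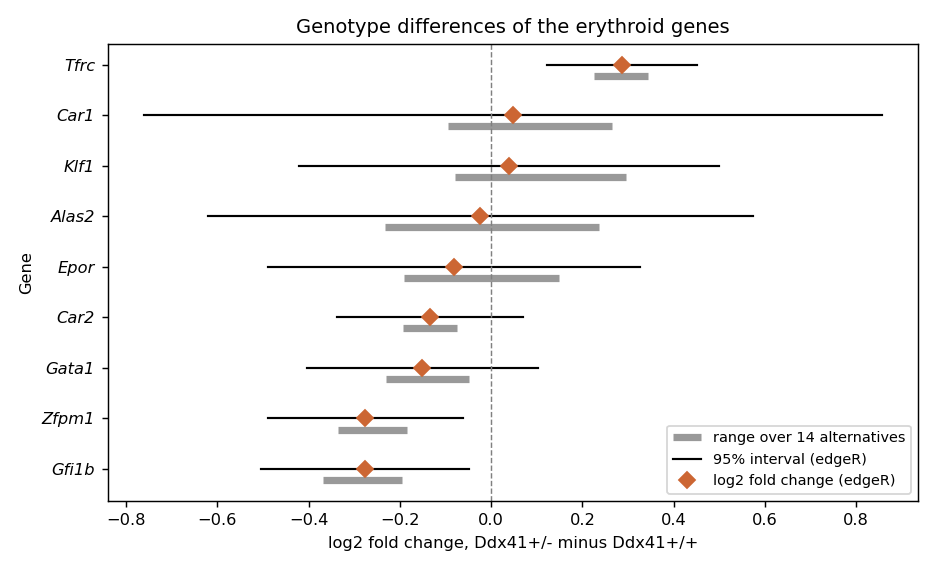
Log2 fold change of the 9 erythroid genes, Ddx41+/- minus Ddx41+/+, from edgeR with its 95% interval (thin line) and the range over 14 alternatives (thick bar). The intervals of Tfrc, Zfpm1 and Gfi1b leave out 0 before adjustment over 13340 genes, and Car1 has the widest, from -0.76 to 0.86.

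The samples of 1 genotype differed from each other in several of these genes at once. Ddx41+/+ 4 had the highest CPM of 5 of the 9 members, Gata1, Klf1, Epor, Car1 and Car2. Ddx41+/- 6 had the lowest of 4 members and Ddx41+/+ 2 the lowest of 3. On the log2 scale, Ddx41+/+ 4 stood 0.59 above the mean of 7 samples for both Klf1 and Epor and 0.53 above it for Car1, while Ddx41+/+ 2 stood 0.42 under it for Klf1. Alas2 did not follow this order, being highest in Ddx41+/+ 3 and low in Ddx41+/- 8.

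**Figure D4:**
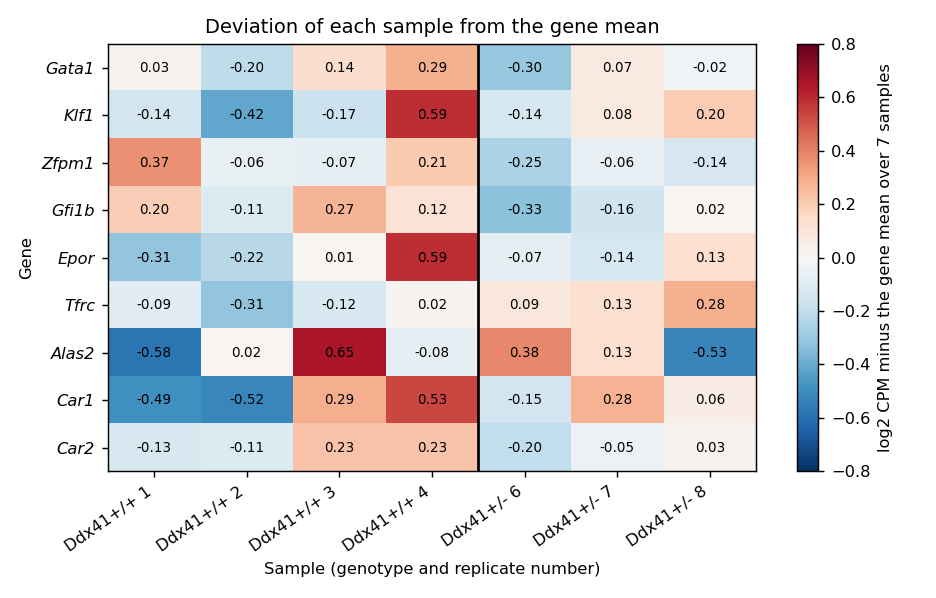
Log2 CPM of each erythroid gene in each sample minus the gene's mean over 7 samples, with red above and blue below the mean. Ddx41+/+ 4 is above the mean for all members except Alas2, with 0.59 for Klf1 and Epor, and Ddx41+/- 6 is below it for all except Tfrc and Alas2.

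Correlations of log2 CPM over the 7 samples describe this shared variation. Both genotypes enter together. Of 36 pairs of members, 28 had a positive Pearson r, and 24 did so without Ddx41+/+ 4. Klf1 and Epor had the highest (r = 0.87, Spearman rho = 0.68, n = 7), which rested on few samples, with r = 0.20 when Ddx41+/+ 4 and Ddx41+/- 8 were left out. Gata1 and Car2 had r = 0.84 (rho = 0.82, n = 7, r = 0.63 without Ddx41+/+ 4 and Ddx41+/- 6). The neighbours Car1 and Car2 had r = 0.79 (rho = 0.82, n = 7), with r = 0.83 without Ddx41+/+ 1 and 2 and r = 0.67 without Ddx41+/+ 4. Zfpm1 and Gfi1b had r = 0.64 (rho = 0.46, n = 7).

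Outside the members, 9795 genes with a mean of at least 5 CPM were ranked by likeness to Gata1 and Klf1 over the same 7 samples. Closest to Gata1 were P2ry2, a nucleotide receptor (r = 0.98), Mmp14, a membrane-bound metalloproteinase (r = 0.96), the adaptor Nck2 (r = 0.95), Cwf19l1 (r = 0.93) and the septin Sept8 (r = 0.93). Closest to Klf1 were Ubqln4, a ubiquilin (r = 0.98), Slc11a2, the iron transporter DMT1 (r = 0.96), the growth factor Vegfa (r = 0.96), Pigq (r = 0.96) and the poly(A)-binding protein Pabpc4 (r = 0.95). With 7 samples and so many genes, high values of r arise readily, and these names describe a ranking only.

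A pair of ratios taken within each sample compared erythroid with earlier or housekeeping counterparts. The log2 ratio of Gata1 to Gata2 was -2.42, -2.20, -1.94 and -1.97 in Ddx41+/+ and -2.06, -1.67 and -1.66 in Ddx41+/- samples. Ddx41+/- 7 and 8 were above all controls and Ddx41+/- 6 lay among them. The mean was higher by 0.34 in Ddx41+/- (-1.79 ± 0.23, SD, n = 3, against -2.13 ± 0.23, SD, n = 4), which did not pass the exact two-sided permutation test (p = 0.171, smallest possible 0.0286). Gata1 itself was not fitted higher in Ddx41+/-. Its log2 fold change was -0.15 (edgeR adjusted p = 0.700) and that of Gata2 was -0.49 (edgeR adjusted p = 0.0471). By arithmetic, the higher mean ratio goes with the more negative value of Gata2. The log2 ratio of Alas2 to Alas1, the form of the enzyme used by all cells, averaged -6.61 ± 0.48 in controls (SD, n = 4) and -6.75 ± 0.49 in Ddx41+/- samples (SD, n = 3; difference -0.14, exact two-sided permutation p = 0.743). Its sign turned without Ddx41+/+ 3 or without Ddx41+/- 8.

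The members were then set in 5 lists of the same pathways, holding 108 genes. Of these, 97 were tested and 1 passed, Gata2. Without adjustment 17 had a p under 0.05, with 4 higher and 13 lower in Ddx41+/-, beside 10.6% of all genes tested (5.7% higher and 4.93% lower). The lists were written with earlier results of these samples known, so their counts are not independent evidence of a direction.

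Among 27 erythroid transcription factors and partners, 0 were higher and 1 was lower by adjusted p, 8 were lower at an unadjusted p (4.93% of all genes), and the median log2 fold change was -0.06. Gata2, the stem cell GATA factor, was at 166, 121, 128 and 145 CPM in Ddx41+/+ and 103, 101 and 94.4 CPM in Ddx41+/- samples. All 3 Ddx41+/- values lay under the controls, and the level fell by 0.49 ± 0.09 (SE) on the log2 scale (edgeR adjusted p = 0.0471). This call stands at the threshold, since it was lost when any of 5 samples was left out (Ddx41+/+ 3 or 4, Ddx41+/- 6, 7 or 8, with adjusted p up to 0.169) and in 4 other alternatives. The fold change itself stayed between -0.40 and -0.55 on the log2 scale in all 14 alternatives. Tal1 and Lmo2, which build the erythroid complex with GATA1, had log2 fold changes of -0.28 and -0.24 (edgeR adjusted p = 0.105 and 0.126). Their CPM did not overlap between genotypes, which was so for 10.1% of all genes. Myb and Ikzf1, abundant progenitor factors, had log2 fold changes of 0.07 and -0.01. The summed CPM of the list was 4593 to 4856 in Ddx41+/+ and 4502 to 4513 in Ddx41+/- samples, without overlap. Abundant genes weigh most in this sum. Lmo2 was at means of 512 and 435 CPM in Ddx41+/+ and Ddx41+/- samples, and Myb at 830 and 872 CPM. Of the 27 genes, 9 were fitted higher and 18 lower.

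Downstream of the receptors, 0 of 20 genes of erythropoietin and transferrin receptor signalling passed, and the median was -0.08. At an unadjusted p, 1 was higher and 3 were lower (5.7% and 4.93% of all genes). Cish, a feedback inhibitor induced by STAT5, was at 17.1, 13.4, 12.9 and 10.5 CPM in Ddx41+/+ and 9.06, 7.48 and 6.88 CPM in Ddx41+/- samples. The groups did not overlap, and the log2 fold change of -0.79 ± 0.17 (SE) missed the threshold in edgeR (adjusted p = 0.0792) and passed it in DESeq2. Pim1, a kinase also induced by STAT5, had a log2 fold change of -0.29 (edgeR adjusted p = 0.203), and Tfr2, the second transferrin receptor and a partner of Epor, one of -0.24 (edgeR adjusted p = 0.300). Kit and the phosphatase Ptpn6 had 0.0041 and -0.01.

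Around Alas2, 0 of the 25 tested of 26 genes of heme synthesis and transport passed, and the median was 0.02. At an unadjusted p, 2 were higher and 0 lower (5.7% and 4.93% of all genes). Among the higher was the heme-regulated repressor Bach1 (log2 fold change 0.21, edgeR adjusted p = 0.385). Alas1, at 511 ± 37.7 CPM in Ddx41+/+ and 560 ± 35.3 CPM in Ddx41+/- samples, was the most abundant gene of the list and had a log2 fold change of 0.13 (edgeR adjusted p = 0.521). The heme carrier Slc48a1 had a log2 fold change of -0.08 and Tmem14c one of -0.06.

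Around Tfrc, 0 of the 19 tested of 22 genes of iron uptake and storage passed, and the median was 0.03. At an unadjusted p, 1 was higher and 2 were lower (5.7% and 4.93% of all genes). The one higher was Tfrc itself, and Tfr2 was among the lower. The ferritin chains Fth1 and Ftl1 and the iron chaperone Pcbp2, the most abundant of the list, had log2 fold changes of -0.13, 0.03 and -0.03.

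Of 16 carbonic anhydrases, 9 were tested and 0 passed, with 2 fitted higher, 7 lower and a median of -0.19. Car1 and Car2 dominated the family, and Car9, a membrane-bound form, came next at 16.4 ± 1.04 CPM in Ddx41+/+ and 13.3 ± 2.05 CPM in Ddx41+/- samples (log2 fold change -0.31, edgeR adjusted p = 0.409). Car15 was at 1.38 and 0.894 CPM (adjusted p = 0.657), and Car4, Car10 and Car14 were listed at 0 in all samples.

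**Figure D5:**
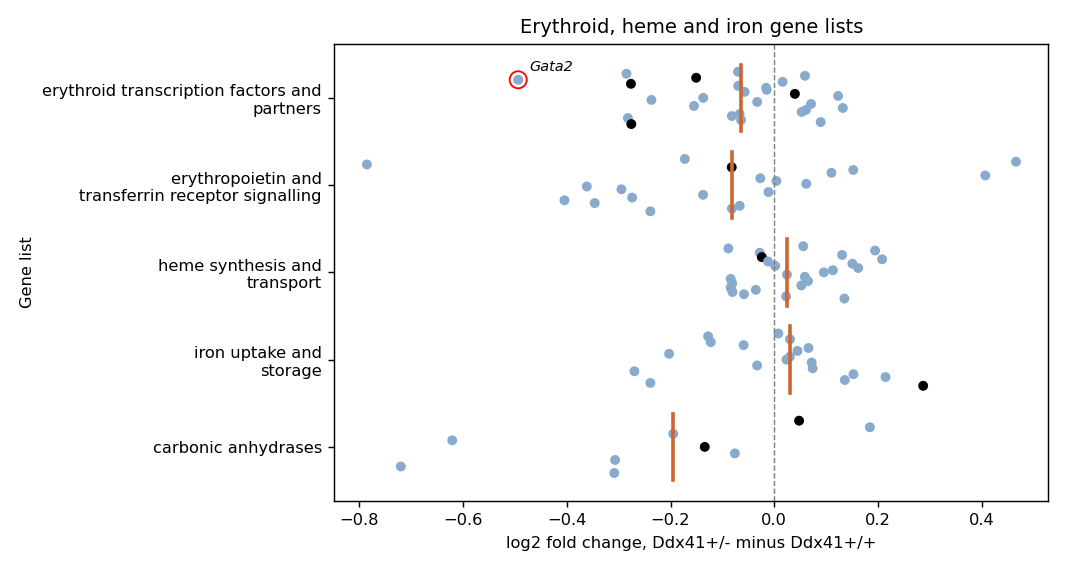
Log2 fold change, Ddx41+/- minus Ddx41+/+, of every tested gene in 5 erythroid, heme and iron lists. Black points are the 9 members, orange bars the list medians (-0.06, -0.08, 0.02, 0.03 and -0.19 from top to bottom), and the red ring marks Gata2, the 1 gene with an adjusted p under 0.05.

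Markers of other cells that an LSK sort could hold were read beside these values. Of 21 tested late erythroid genes, 0 passed, and the median was 0.15. At an unadjusted p 3 were higher and 0 lower (5.7% and 4.93% of all genes). Their summed CPM was 362 to 566 in Ddx41+/+ and 465 to 532 in Ddx41+/- samples, and the spectrin gene Sptb had a log2 fold change of 0.54 (edgeR adjusted p = 0.314). All 9 Hbb and Hba-a rows were listed at 0. How reads shared between near-identical globin copies were handled is not given, so these zeros are not read as absence, and their cause was not tested. Megakaryocyte genes, which share GATA1, FOG1 and GFI1B with the erythroid branch, had 1 lower (Pf4) and 17 of 18 fitted lower, with a median of -0.34 and summed CPM of 620 to 745 against 499 to 627. At an unadjusted p 7 of them were lower and 0 higher (4.93% and 5.7% of all genes). The Pf4 call held in 3 of 7 edgeR fits that left out a sample (adjusted p up to 0.0992). At an unadjusted p, 14 of 17 neutrophil granule and surface genes were higher and 0 lower (5.7% and 4.93% of all genes). Of the 17, 1 passed (Mmp9, higher), and the median was 0.75. Their summed CPM, 17940 to 21770 against 22790 to 24440 and without overlap, was mostly Mpo (14300 ± 1027 CPM in Ddx41+/+ and 16390 ± 778 CPM in Ddx41+/- samples), a granule gene that granulocyte-monocyte progenitors express too. Of the 17 genes, 15 were fitted higher and 2 lower. S100a9, for example, was at 269 ± 62.1 CPM in Ddx41+/+ and 478 ± 144 CPM in Ddx41+/- samples (log2 fold change 0.83, edgeR adjusted p = 0.396). Whether mature neutrophils were among the sorted cells was not tested.

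The remaining 4 lists held 1 called gene. Macrophage genes had 0 passing (median 0.17, summed CPM 251 to 301 against 263 to 344), and T and NK cell genes 0 passing (median -0.08, 248 to 296 against 272 to 305). B-lineage genes had 1 higher (Blnk, median 0.64, 103 to 202 against 110 to 439). Blnk was called in 0 of 7 fits that left out a sample (adjusted p 0.054 to 0.197), and the upper sum rests on Jchain in Ddx41+/- 7, at 346 CPM. The LSK gate list had 0 passing and 7 of 14 lower, 0 higher, at an unadjusted p (4.93% and 5.7% of all genes). Its median was -0.22, with summed CPM of 2242 to 2490 against 2110 to 2278. Hlf had the smallest adjusted p of the list, with a log2 fold change of -0.46 and no overlap (edgeR adjusted p = 0.062). What part these shifts had in the values of Zfpm1, Gfi1b and Tfrc was not tested.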

How the data were processed

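RNA-seq was performed on LSK cells of 4 Ddx41+/+ and 3 Ddx41+/- samples, grouped by the genotype in the labels. The authors deposited whole-number counts per gene symbol, not normalized. The submitters' processing notes name FastQC 0.11.7, HISAT2 2.0.5, featureCounts 1.5.2 and mm10. The strand setting and the handling of reads shared between genes are not given in the sources used here, and the library kit is described both as stranded and as unstranded. A Ddx41+/- library numbered 5 had been left out of the table by the authors and was not analysed here. Total counts were 32234499 to 43751290, and counts of all 21 sample pairs differed beyond sampling noise (chi-square per gene at least 13.7).

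Counts were fitted with the edgeR 4.0.16 quasi-likelihood test in R 4.3.3 (robust, trimmed mean of M values scaling, filterByExpr) with genotype only. This left 13340 genes, over which p-values were Benjamini-Hochberg adjusted with a threshold of 0.05. CPM used the scaled library sizes, and log2 CPM a prior count of 2. The biological coefficient of variation was 12.9%. The fit was checked on simulated data. Single values per sample were compared by an exact permutation test over 35 arrangements. Gene positions and exon lengths came from GENCODE M21 by symbol. Alternatives were 4 other settings of scaling and filter, a non-robust fit, DESeq2 1.42.0, limma 3.58.1 (voom with sample weights), a prior count of 0.5 for the ratios, and leaving out each sample. The members and lists were chosen with earlier results of these data known. Named genes were the 9 members, Ddx41, the list genes with an adjusted p under 0.05, the 3 most abundant and the 2 with the smallest p of each pathway list, and the 5 most like Gata1 and Klf1. For marker lists only called genes, Kit, Ly6a, Sptb, Mpo, S100a9, Jchain and Hlf are named. Some genes that this rule covers are not reported here.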

Additional observations from a re-analysis of the deposited data

How the results depend on the processing

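Over 126 alternatives for the 9 members (14 each), 114 kept the direction and the side of the threshold, 1 passed it and 11 turned the sign. The one that passed was Tfrc in DESeq2 (1 member called, adjusted p = 0.0492). Signs turned for Klf1 (-0.0785 to 0.30 on leaving out a sample), Epor (0.0207 in voom, -0.19 to 0.15), Alas2 (-0.23 to 0.24) and Car1 (-0.0941 to 0.27), none of them called. The log2 ratio of Alas2 to Alas1 differed by -0.37 to 0.11 on leaving out a sample (0.06 without Ddx41+/+ 3, 0.11 without Ddx41+/- 8), and that of Gata1 to Gata2 kept its sign throughout. The count over all genes was 29 and became 15 with library totals, 91 with no filter, 14 in a non-robust fit and 164 in DESeq2, and 7 to 41 on leaving out a sample. In the pathway lists the count of 1 became 0 with median-of-ratios scaling, library totals, the non-robust fit and voom, 2 with no filter (Gata2 and Cish) and 5 in DESeq2 (Gata2, Tal1, Lmo2, Cish and Tfrc), and was 0 to 1 on leaving out a sample. On leaving out a sample the log2 fold changes of Ikzf1 (-0.0336 to 0.0175), Kit (-0.0358 to 0.0445, and -0.0109 with library totals and -0.0043 with upper-quartile scaling), Ptpn6 (-0.0504 to 0.0135), Tmem14c (-0.16 to 0.0359), Ftl1 (-0.0098 to 0.0511) and Pcbp2 (-0.0787 to 0.0106) turned sign. The causes were not tested. Ddx41 was called in all 14 alternatives, at -0.56 to -0.50.

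No paired analysis was possible because the genotypes share no replicate number. With 3 and 4 samples the standard errors were widest for Car1 (0.32) and Alas2 (0.28). Dixon's test on the 4 Ddx41+/+ samples passed for 0 of 23 values, and says little at this size.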
